A study of Mus musculus with 2 samples.

Results

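The cells described here are T cells of the nephritic mouse kidney that hold transcripts of the CD8 coreceptor although they were clustered with CD4+ cells. They are the cells that the authors placed in their cluster of effector memory-like (EM-like) CD4+ T cells and in which at least 1 unique molecular identifier (UMI, the tag that marks 1 captured RNA molecule) of Cd8a or Cd8b1 was counted. The rule picked 146 of the 733 cells of this cluster, and of the 7314 cells in the data, with 103 from the WT library and 43 from the Vsir-/- library. Both libraries were made from kidneys of 8-week-old C57BL/6 mice with nephrotoxic serum nephritis (NTN), a model in which a sheep serum directed at the kidney triggers glomerular injury. The mice first received 200 µg of sheep IgG with Freund's complete adjuvant into the peritoneum and, 4 days later, nephrotoxic serum into a vein at 2 µL/g according to the labels, while the methods give another dose. The Vsir-/- mice lack the gene of VISTA, an immune checkpoint of myeloid cells and T cells, and were bred from the sperm of a knockout repository. The labels say that the WT library held sorted CD45+ cells and the Vsir-/- library all kinds of kidney cells, while the methods describe sorted immune cells for both. The number of mice behind each library is not given, and the comparison asked how loss of VISTA shapes T cells of the inflamed kidney.

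CD8 is the coreceptor through which a T cell reads MHC class I. It is made as a dimer of an alpha chain (Cd8a) with a beta chain (Cd8b1) on most conventional cytotoxic T cells, or as a dimer of alpha chains alone, which is known from intraepithelial, NK-like and some gamma delta T cells. CD4 is the coreceptor for MHC class II, and mature T cells of the alpha beta lineage usually keep 1 coreceptor: Zbtb7b (ThPOK) holds the CD4 lineage and Runx3 the CD8 lineage. Effector memory T cells have left the lymphoid circuit and carry receptors for inflamed tissue such as CXCR3 and CXCR6.

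With 1 library per genotype and with cells that are not replicates, no test between genotypes was possible, and all intervals below are 95% exact intervals that cover counting error only. The libraries also differed in ways that cannot be told apart from genotype. The WT library had 0 Xist UMIs and 1779 Ddx3y UMIs, and the Vsir-/- library had 16405 and 0, so the first had the pattern of male and the second that of female cells, although the methods describe male mice. Vsir itself had 4278 UMIs in the WT library and 8 in the Vsir-/- library. Of 20299 genes, 1053 had UMIs in the WT library alone and 4827 in the Vsir-/- library alone, among them pairs of symbols for the same gene: Micos10 had 0 and 5368 UMIs, and its older symbol Minos1 had 5263 and 0. The 2 libraries shared 5 cell barcodes, none of them of a Cd8-holding cell.

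Of the cells of the EM-like CD4+ cluster, 21.1% held a Cd8 UMI in the WT library (103 of 489 cells, interval 17.5 to 24.9%) and 17.6% in the Vsir-/- library (43 of 244 cells, 13.1 to 22.99%). B cells, which should lack the genes, held one in 2.17% (WT) and 1.14% (Vsir-/-), and neutrophils in 3.24 and 1.90%, below the share in the EM-like CD4+ cluster in both libraries. Other non-T cell clusters held more: in WT 11.2% of R1 macrophages and 5.92% of M2-like R2 macrophages, and in Vsir-/- 22.1% of 86 plasmacytoid dendritic cells (pDC; median depth 13776.5 UMIs), above the 17.6% of the cluster. The median depth was 4903 and 5852.5 UMIs per cell in the cluster, 3426 and 3596.5 in B cells, and 3565 and 4097 in neutrophils. After thinning to 1000 UMIs per cell, the share was 12.3% of 479 cells (WT) and 14.1% of 241 cells (Vsir-/-), against 0.739 and 1.39% of B cells and 6.98% of Vsir-/- pDC. The order of the genotypes turned with depth, and the intervals overlapped in both forms. The EM-like CD8+ cluster held Cd8 UMIs in 52.8% of its 197 cells in WT and in 53.6% of its 28 cells in Vsir-/-, the non-EM-like CD8+ cluster in 100 and 96%, and the non-EM-like CD4+ cluster in 12.1 and 7.45%.

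The Cd8-holding cells carried a larger share of the Cd8 UMIs of the Vsir-/- library than of the WT library. By number they were 8.99% of the 1146 WT and 25.1% of the 171 Vsir-/- cells with a Cd8 UMI. They held 791 of the 9359 Cd8 UMIs of the WT library (8.45%) and 524 of the 1420 of the Vsir-/- library (36.9%), where the EM-like CD8+ cluster had 28 cells and the non-EM-like CD8+ cluster 50. A WT cell had a median of 6 Cd8 UMIs (interquartile range 2 to 11, highest 32), and a Vsir-/- cell a median of 12 (6 to 16, highest 42). At least 3 Cd8 UMIs were counted in 76 WT and 35 Vsir-/- cells, and at least 10 in 32 and 27. These counts come from the genes that chose the cells and are given as a description.

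Cells at the edge of the rule differed from those well inside it. Exactly 1 Cd8 UMI was found in 21 WT and 5 Vsir-/- cells. In the 21 WT cells, Cd4 stood at 49.7 CPM (18.2 to 108; UMIs of the gene per 1000000 UMIs of the same cells) and Zbtb7b, the CD4-lineage regulator, at 66.3 CPM, against 13.8 and 12.2 CPM in the 82 WT cells with 2 or more Cd8 UMIs. In the 386 WT cells of the cluster with no Cd8 UMI, just outside the rule, Cd4 was at 83.4 CPM and Zbtb7b at 44.4 CPM. Ccl5, a chemokine of memory and cytotoxic T cells, was at 3147 CPM with 1 Cd8 UMI, 5860 CPM with 2 or more and 2770 CPM with none. The cells with 1 Cd8 UMI thus had levels of these genes nearer to the rest of the cluster than to the cells with 2 or more.

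**Figure D1:**
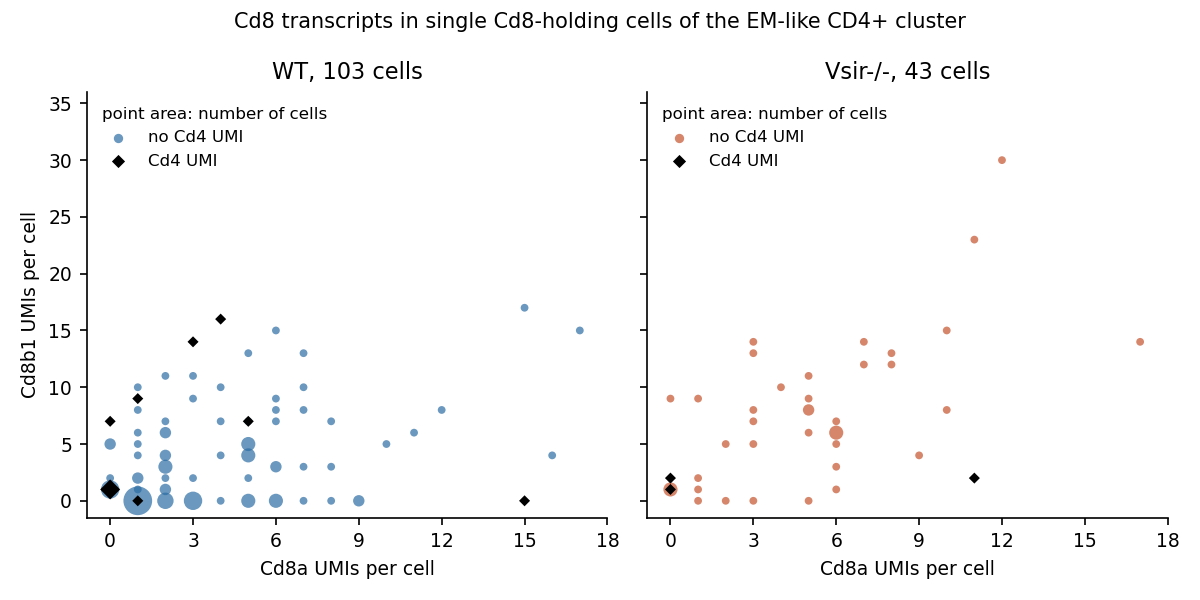
Cd8a UMIs (x axis) against Cd8b1 UMIs (y axis) of each Cd8-holding cell, WT left and Vsir-/- right; point area gives the number of cells and black diamonds mark cells with a Cd4 UMI. Cells with both subunits reached 17 Cd8a UMIs in each library and 17 (WT) or 30 (Vsir-/-) Cd8b1 UMIs, and only 10 WT and 3 Vsir-/- cells held a Cd4 UMI.

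Both CD8 chains were transcribed in most of the cells. Cd8a and Cd8b1 were found together in 57 of 103 WT cells (55.3%) and in 33 of 43 Vsir-/- cells (76.7%). Cd8a alone was seen in 34 WT and 4 Vsir-/- cells, and Cd8b1 alone in 12 and 6. A cell with Cd8a alone held a median of 2.5 Cd8a UMIs in each library, with at most 15 in WT and 5 in Vsir-/- cells. Of these WT cells, 13 held a single Cd8a UMI, a depth at which the absence of the other chain is not established. Cd8b1 made up 50.3% of the Cd8 UMIs in WT cells (46.8 to 53.9%) and 59.5% in Vsir-/- cells (55.2 to 63.8%), and 54.4 and 74.2% in the EM-like CD8+ cluster.

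The label of the cluster says CD4+, and the Cd8-holding cells went against it. Cd4 was at 19.4 CPM in WT (10.8 to 31.9, 15 UMIs) and 9.73 CPM in Vsir-/- Cd8-holding cells (2.01 to 28.4, 3 UMIs), against 83.4 and 108 CPM in the rest of the cluster, which is a log2 ratio of −2.11 (−2.98 to −1.34) in WT and −3.47 (−5.77 to −1.90) in Vsir-/- cells. A Cd4 UMI was present in 10 of 103 and 3 of 43 Cd8-holding cells (9.71 and 6.98%), in 23.8 and 37.8% of the rest, and in 3.24 and 0% of neutrophils, where 0 of 158 allows up to 2.31% at the upper end of its interval. After thinning, 2.91% of WT and 0% of Vsir-/- Cd8-holding cells held a Cd4 UMI, against 7.98 and 10.6% of the rest. The cells are therefore called Cd8-holding cells here, not CD4+ T cells.

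They were T cells by their antigen receptor genes. All 103 and all 43 cells had a UMI of a Cd3 chain or of the alpha or beta receptor constant regions, and the summed pan-T cell list of 12 genes, led by Trbc2, stood at 7208 and 7516 CPM, against 138 and 26.7 CPM in B cells. The gamma delta list, led by Trdc, was at 315 and 113 CPM, and 7 WT and 0 Vsir-/- cells had a Trdc UMI. A single WT cell carried 42 of the Trdc UMIs, along with 111 Gzma, 15 Cd8a, 0 Cd8b1, 2 Cd4 and 8 Trac UMIs. The group 2 innate lymphoid list was at 148 and 162 CPM, with Il13 and Il5 at 0 in the Cd8-holding cells of both libraries.

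RNA of other cells was present beside them. The B cell list, led by Ighm, stood at 515 CPM in WT and 269 CPM in Vsir-/- Cd8-holding cells, against 44904 and 76712 CPM in B cells. The macrophage and monocyte list, led by Cst3, was at 302 and 486 CPM with C1qc and Ms4a7 at 0, and the neutrophil list, led by S100a9, at 276 and 113 CPM, against 272288 and 294486 CPM in neutrophils. Of the dendritic cell list (368 and 428 CPM, led by Bst2, which other cells also make), Siglech, Flt3, Xcr1, Clec9a, Cd209a and Zbtb46 were at 0. At least 2 UMIs of the B cell or the macrophage list were found in 68 WT and 35 Vsir-/- Cd8-holding cells, and the part of doublets or free RNA in the results was not tested. Kidney tubule RNA was far higher in the Vsir-/- library: the tubule list stood at 330 and 4384 CPM in Cd8-holding cells, and its leading gene Gpx3 had 0 UMIs in WT and 830 CPM in Vsir-/- cells. The same list was at 190 and 5269 CPM in neutrophils. The endothelium and stroma list was at 28.4 CPM in WT and 636 CPM in Vsir-/- cells.

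The first comparison set the Cd8-holding cells against the rest of their own cluster. Because the cells were clustered on these genes and sorted here by Cd8 UMIs, it describes the cells and tests nothing. Most CD4-lineage genes and 5 of 8 type 17 genes were lower, and Gzmk, Gzma and Ly6c2 were higher, in the Cd8-holding cells of both libraries. Of 6831 genes with at least 20 UMIs, 17 were more than 2-fold higher in both libraries (0.249%) and 80 more than 2-fold lower in both (1.17%), 1.42% in either direction. The median log2 ratio of all genes in this comparison was −0.10 in WT and −0.02 in Vsir-/- cells.

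Among CD4-lineage genes, 5 of the 6 measured were more than 2-fold lower in both libraries, with median log2 ratios of −1.19 in WT and −3.03 in Vsir-/- cells. Cd40lg, the helper ligand that licenses B cells and dendritic cells, was at 23.2 CPM in WT and 9.73 CPM in Vsir-/- Cd8-holding cells, against 100 and 202 CPM in the rest of the cluster. Icos, a costimulatory receptor of helper cells, was at 64.5 and 58.4 CPM against 151 and 239 CPM, and Tnfrsf4 (OX40) at 36.1 and 22.7 CPM against 82.4 and 170 CPM. Zbtb7b was at 20.6 and 9.73 CPM against 44.4 and 49.6 CPM. Each of these helper genes was lower in the Cd8-holding cells of both libraries. Runx3, the CD8-lineage factor, was at 235 and 295 CPM against 232 and 144 CPM, more than 2-fold higher in Vsir-/- cells and nearly level in WT; this difference between the libraries was not tested.

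The type 17 list was lower too, in 5 of its 8 measured genes and in both libraries (summed level 497 and 441 CPM against 1124 and 1756 CPM). Il17a, its cytokine, had 1 UMI in WT and 0 in the 43 Vsir-/- Cd8-holding cells. The rest of the cluster held 39.9 CPM in 3 WT cells and 318 CPM in 22 of 201 Vsir-/- cells. Because so few cells held these UMIs, no limit of the fold difference is given. Maf, a factor of IL-17- and IL-10-making T cells, was at 168 and 123 CPM against 434 and 365 CPM, and Rora at 142 and 84.3 CPM against 247 and 288 CPM. Tmem176b, a gene of type 17 cells, was at 78.7 and 117 CPM against 173 and 304 CPM. Il22 and Ccl20 were at 0 in the Cd8-holding cells. Genes outside these lists that were lower in both libraries included Podnl1 (11.6 and 16.2 CPM against 70.0 and 98.5), Cxcl10 (11.6 and 13.0 against 52.8 and 67.8) and the integrin chain gene Itgb3 (6.45 and 3.24 against 29.1 and 29.2).

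A few effector genes of cytotoxic cells were higher. Of the 14 genes of the cytotoxic list measured in both libraries, 2 were more than 2-fold higher in both, Gzma and Gzmk, and 1 was lower, Gzmc (median log2 ratio 0.11 in WT and 0.59 in Vsir-/- cells). Gzmk, the granzyme of memory CD8+ T cells, was at 31.0 CPM in WT and 156 CPM in Vsir-/- Cd8-holding cells against 2.47 and 14.2 CPM in the rest, log2 ratios of 3.65 (2.23 to 5.40) and 3.46 (2.65 to 4.33). Gzma was at 659 and 201 CPM against 162 and 14.2 CPM, but a single Vsir-/- cell held 46 of 62 UMIs, and without the cell with most UMIs in each group the log2 ratios were 2.01 and 2.24. Ccl5 was at 5438 and 8735 CPM against 2770 and 2110 CPM. Ccl5 was found in 97 of 103 WT and 40 of 43 Vsir-/- cells, and Gzmk in 12 and 16. Nkg7, a granule protein of cytotoxic cells, was at 1922 and 2036 CPM against 1420 and 1069 CPM, and Ly6c2, a surface protein of memory CD8+ T cells, at 1149 and 1239 CPM against 548 and 497 CPM. Ncald (45.1 and 51.9 CPM against 14.8 and 10.2) and Klra6, an inhibitory Ly49 receptor gene (63.2 and 48.6 against 22.7 and 10.2), were also higher in both. Ebf1, a B cell factor, met the same rule, but 1 cell held 79% of its UMIs in WT and 1 cell 84% in Vsir-/- Cd8-holding cells.

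**Figure D2:**
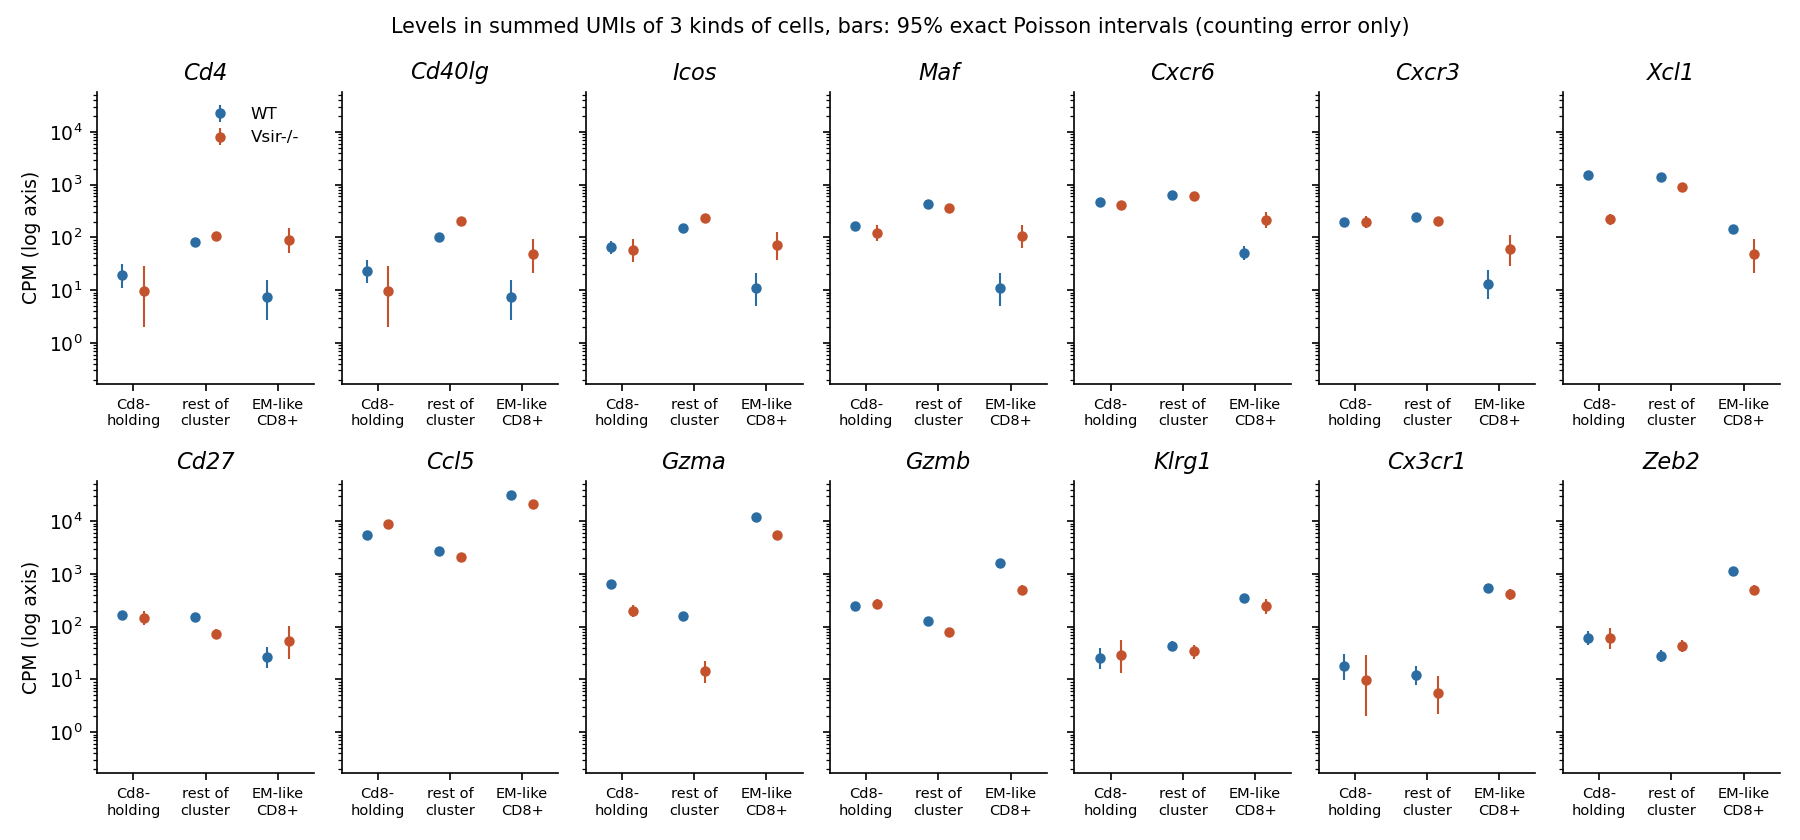
CPM (log axis) of 14 genes in the summed UMIs of Cd8-holding cells, the rest of the EM-like CD4+ cluster, and the EM-like CD8+ cluster, with 95% exact Poisson intervals; blue, WT and red, Vsir-/-. Cd4, Cd40lg, Icos and Maf were lower in Cd8-holding cells than in the rest of the cluster, and Cxcr6, Cxcr3 and Xcl1 stood above, and Gzma, Klrg1, Cx3cr1 and Zeb2 below, the EM-like CD8+ cluster in both libraries.

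The receptors that mark the cluster were at or somewhat below its level in the Cd8-holding cells, and its chemokine Xcl1 was lower in the Vsir-/- library. Cxcr6, the receptor for the membrane-bound chemokine CXCL16 and a marker of tissue T cells, was at 462 CPM in WT (415 to 512) and 415 CPM in Vsir-/- Cd8-holding cells (346 to 494), in 72 and 31 cells, against 642 and 601 CPM in the rest of the cluster. Cxcr3, the receptor for interferon-induced chemokines, was at 195 CPM in each library, against 249 and 209 CPM. Xcl1, the chemokine that draws cross-presenting dendritic cells, was at 1558 CPM in WT and 224 CPM in Vsir-/- cells, against 1412 and 904 CPM, and with at least 2 Cd8 UMIs the WT log2 ratio over the rest was −0.038 in place of 0.14. In all 3 markers the Cd8-holding cells of both libraries stood above the EM-like CD8+ cluster, where Cxcr6 was at 51.0 and 217 CPM, Cxcr3 at 13.4 and 60.2 CPM, and Xcl1 at 147 and 48.2 CPM.

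The second comparison asked how the Cd8-holding cells differ from the cells that the authors named EM-like CD8+, and it too is a description of cells that were clustered on these genes. The Cd8-holding cells had higher Xcl1, Cxcr3, Cxcr6 and Cd27 levels and lower Cx3cr1, S1pr5, Gzma, Klrg1 and Zeb2 levels in both libraries. Of 3246 genes with at least 20 UMIs, 35 were more than 2-fold higher in both libraries (1.08%) and 38 more than 2-fold lower in both (1.17%), 2.25% in either direction. Within 1 library, 324 of 6855 genes were higher in WT (4.73%) and 389 lower (5.67%), with a median log2 ratio of −0.06, and 241 of 3403 were higher in Vsir-/- cells (7.08%) and 171 lower (5.02%), with a median of −0.03. The EM-like CD8+ cluster of the Vsir-/- library had 28 cells and 166037 UMIs, which limits the precision there. Markers of NK cells and gamma delta T cells were higher in that cluster. The NK cell list stood at 17214 and 6149 CPM, against 2238 and 603 CPM in Cd8-holding cells. The gamma delta list was at 785 and 518 CPM, against 315 and 113 CPM. A Trdc UMI was found in 46 of its 197 WT and 6 of its 28 Vsir-/- cells, and a Cd4 UMI in 5 and 6. At least 2 UMIs of the B cell or macrophage list were held by 78 and 22 of these cells. Among Cd8-holding cells they were held by 68 of 103 and 35 of 43. The Cd8-holding cells were deeper, with a median of 6350 and 6769 UMIs against 3886 and 5236. Per UMI, the B cell list was at 515 and 269 CPM in Cd8-holding cells against 415 and 283 CPM. The macrophage and monocyte list was at 302 and 486 CPM against 293 and 355 CPM. The genes that were lower in Cd8-holding cells, Gzma, Klrg1, Cx3cr1, Zeb2 and S1pr5, are also genes of NK cells, and the part of such cells in the difference was not tested. In the EM-like CD8+ cluster, only 104 of 197 WT and 15 of 28 Vsir-/- cells held a Cd8 UMI. Against those cells alone, a setting chosen after seeing the data, 60 of 2764 genes were past 2-fold the same way in both libraries.

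Cx3cr1 and S1pr5 were among the genes with the lowest ratios. Cx3cr1, the fractalkine receptor of blood-borne effector T cells, was at 18.1 CPM in WT and 9.73 CPM in Vsir-/- Cd8-holding cells against 552 and 410 CPM in EM-like CD8+ cells, log2 ratios of −4.93 and −5.40. S1pr5, a receptor that guides exit into blood, was at 6.45 and 3.24 CPM against 230 and 114 CPM. Zeb2, a factor of terminal effector cells, was at 61.9 and 61.6 CPM against 1121 and 506 CPM, and Klrg1, their surface marker, at 25.8 and 29.2 CPM against 354 and 247 CPM. In the rest of the cluster Cx3cr1 was at 12.3 and 5.52 CPM, S1pr5 at 4.93 and 0 CPM, and Klrg1 at 43.9 and 33.9 CPM, while Zeb2 was at 28.1 and 43.3 CPM and so more than 2-fold below the Cd8-holding cells in WT. All 4 genes were nearer to the rest of the cluster than to the EM-like CD8+ cluster. The fixed list of recirculation and central memory genes went both ways: 1 of 12 genes was higher and 3 lower in both libraries, with 10 of 18 higher and 3 lower in WT (median log2 ratio 1.30) and 1 of 12 higher and 4 lower in Vsir-/- cells (−0.11). Snx10 (28.4 and 22.7 CPM against 125 and 145), Plek (46.4 and 38.9 against 193 and 163) and Il18rap, a chain of the IL-18 receptor (58.0 and 55.1 against 310 and 223), followed the same order.

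Gzma and Ccl5 were present but below the EM-like CD8+ level. Gzma was at 659 and 201 CPM against 12179 and 5463 CPM, Ccl5 at 5438 and 8735 CPM against 32165 and 21567 CPM, and the cytotoxic list of 15 genes, led by Nkg7, summed to 5407 and 5289 CPM against 21568 and 12148 CPM. Only 1 of the 13 cytotoxic genes measured in both libraries, Gzma, was past 2-fold in both, with 7 of 14 lower in WT and 2 lower and 1 higher of 13 in Vsir-/- cells. The Cd8-holding cells therefore stood between the rest of their cluster and the EM-like CD8+ cluster for Gzma, Ccl5 and Nkg7 in both libraries.

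Higher in the Cd8-holding cells than in EM-like CD8+ cells were Xcl1, with log2 ratios of 3.41 (3.13 to 3.69) in WT and 2.21 (1.16 to 3.48) in Vsir-/- cells, and Cxcr3, with 3.87 (2.98 to 4.90) and 1.69 (0.71 to 2.82). Cxcr6 was higher by 3.18 (2.71 to 3.67) in WT and by 0.94 (0.39 to 1.51) in Vsir-/- cells on the log2 scale. Tnf, the inflammatory cytokine, was at 49.0 and 90.8 CPM against 10.9 and 24.1 CPM, and Ctla2a, a protease inhibitor of activated T cells, at 377 and 642 CPM against 46.2 and 181 CPM. Cd27, a costimulatory receptor lost in late effector cells, was at 165 and 149 CPM against 26.7 and 54.2 CPM. Cd28 was at 218 and 314 CPM against 48.6 and 259 CPM, so that this receptor differed by more than 2-fold in WT alone. Arhgap5 (24.5 and 94.0 CPM against 2.43 and 6.02), Isg20, an interferon-induced exonuclease gene (38.7 and 101 against 2.43 and 24.1), Spint2 (68.4 and 61.6 against 2.43 and 18.1) and Gstp3 (63.2 and 90.8 against 17.01 and 24.1) completed the set. Of the inhibitory and costimulatory receptor list, 2 of 8 genes measured, Cd27 and Tnfrsf18, were more than 2-fold higher in both libraries and 0 were lower, and Icos was at 64.5 and 58.4 CPM against 10.9 and 72.3 CPM. The chemokine receptor list had 1 of 5 genes higher, Cxcr3, and 1 lower, Cx3cr1.

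**Figure D3:**
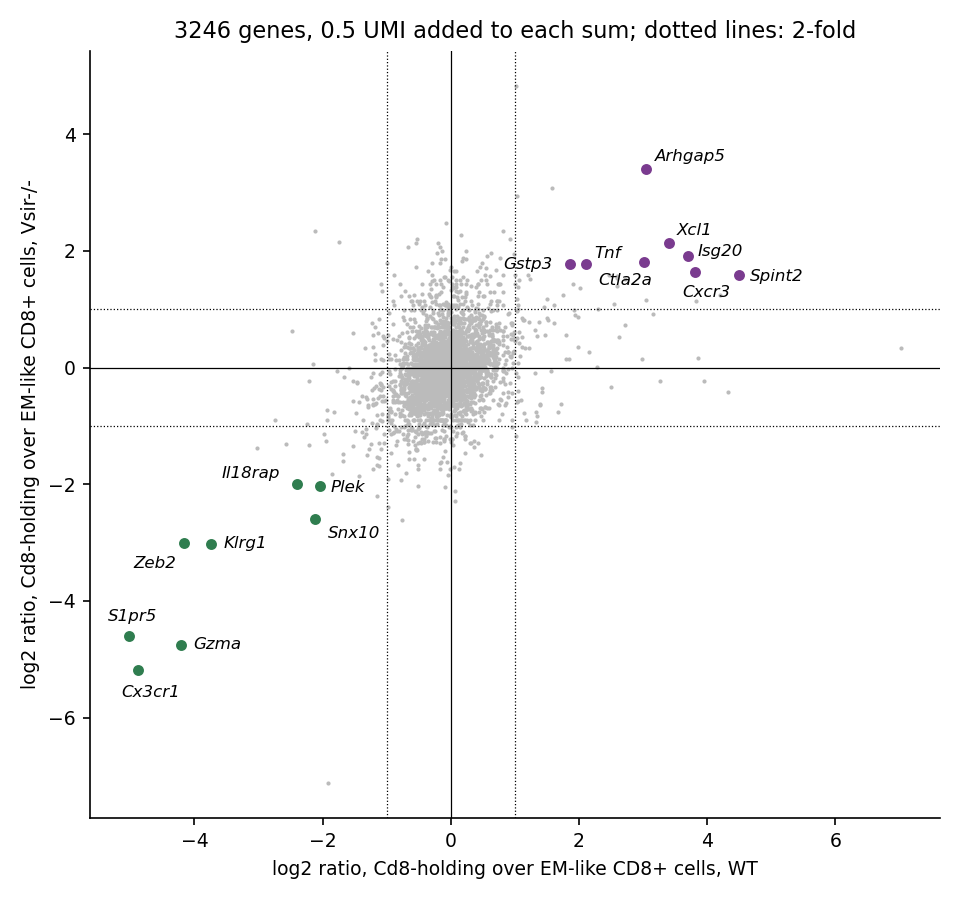
Log2 ratio of Cd8-holding over EM-like CD8+ cells in WT (x axis) and Vsir-/- (y axis) for 3246 genes, with the 8 highest (purple) and 8 lowest (green) named genes marked and dotted lines at 2-fold. Cx3cr1 and S1pr5 lie at the lower left, near −5 in both libraries, and Xcl1 and Cxcr3 at the upper right.

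The third comparison was between genotypes. In the Vsir-/- library the Cd8-holding cells had lower levels of the NK receptor adaptors Fcer1g and Tyrobp, of Klra1, Klra7 and Xcl1 and of genes of recirculating cells, and higher levels of Ccl4 and Gzmk. Of 5860 genes with at least 20 UMIs, 423 were more than 2-fold higher (7.22%) and 389 more than 2-fold lower (6.64%) in the Vsir-/- library, with a median log2 ratio of 0.02. In all, 812 genes were past 2-fold (13.9%), and list counts are read against these shares. With only genes that had a UMI somewhere in each library, an alternative added once the data had been examined, 697 of 5745 genes were past 2-fold (12.1%), 364 higher (6.34%) and 333 lower (5.8%).

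The NK receptor adaptors and some NK receptors were lower in the Vsir-/- library. Fcer1g and Tyrobp (DAP12), the adaptor chains through which NK receptors signal, were at 540 and 42.2 CPM and at 306 and 38.9 CPM in WT and Vsir-/- cells, log2 ratios of −3.68 (−4.60 to −2.89) and −2.97. The rest of the cluster had ratios of −2.08 and −2.13, and the EM-like CD8+ cluster −3.09 and −2.57, so both adaptors were lower in all 3 groups of T cells. In neutrophils, which use the same adaptors, Fcer1g was at 2077 and 2051 CPM and Tyrobp at 4040 and 4099 CPM, and in the NK cluster Fcer1g was at 2217 and 1789 CPM. Markers of other cells were lower beside them: the neutrophil list in 3 of 4 genes and higher in 0 (median −1.51, 276 and 113 CPM), and the B cell list in 3 of 6 and higher in 1 (median −0.99, 515 and 269 CPM), while the macrophage and monocyte list was higher in 1 of 4 and lower in 0 (median 0.62). The part of RNA from such cells in the lower levels was not tested. The NK cell list was more than 2-fold lower in 6 of 9 genes and higher in 0 (median log2 ratio −1.70), while Klra8 and Klra4 were at 0 in the Cd8-holding cells of both libraries, and the list of NK receptors on T cells was lower in 6 of 13 and higher in 0 (median −0.93, summed level 2185 and 1070 CPM). Klra1 was at 134 and 13.0 CPM and Klra7 at 245 and 74.6 CPM, whereas Klra6, at 63.2 and 48.6 CPM, was less than 2-fold apart. Klrk1 (NKG2D) was at 328 and 185 CPM, Klrd1 (CD94) at 432 and 285 CPM and Cd160 at 257 and 143 CPM, differences of less than 2-fold. Ncr1, an NK cell receptor, was at 78.7 CPM in WT and at 0 in Vsir-/- cells, at least 8.09-fold lower. The list of innate-like T cells, which shares Klrk1, Cd160 and Klrb1c with the list of NK receptors, was lower in 1 of 7 genes (1286 and 775 CPM).

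NK receptor levels also differed between cells with Cd8a alone and cells with both chains. In the 34 and 57 such cells of the WT library, Klra1 was at 333 and 25.7 CPM (log2 ratio 3.70, 2.81 to 4.71), Klra7 at 589 and 87.8 CPM, and Klrk1 at 670 and 158 CPM (2.08). Ikzf2 (Helios), a factor of innate-like and regulatory T cells, was at 944 and 126 CPM (2.90, 2.48 to 3.34), and Cd7 at 1051 and 370 CPM. Tcrg-C2, a gamma receptor constant region, was at 149 and 27.8 CPM and Gzma at 1277 and 445 CPM. The WT cell with 42 Trdc UMIs is among the cells with Cd8a alone, and it held 111 of their 299 Gzma UMIs and 63 of their 153 gamma delta list UMIs. Without it, an alternative chosen after seeing the data, Gzma was at 868 CPM, less than 2-fold above cells with both chains, the gamma delta list went from 653 to 416 CPM against 178 CPM, and Tcrg-C2 was at 129 CPM. Klra1, Klra7, Klrk1 and Ikzf2 then stood at 360, 637, 720 and 970 CPM, so that cells with Cd8a alone carried these 4 transcripts at several times the level of cells with both chains with or without that cell. The markers of the cluster were nearer to each other, with intervals of the log2 ratio that include 0: Cxcr6 was at 508 and 445 CPM (log2 ratio 0.19, −0.15 to 0.52), Cxcr3 at 218 and 178 CPM (0.29, −0.24 to 0.81) and Xcl1 at 1473 and 1602 CPM (−0.12, −0.31 to 0.07). Without the cell with most Xcl1 UMIs in each group, Xcl1 was at 1162 and 805 CPM (0.53). Cells with both chains had more Ccl4 (942 against 171 CPM), Ccl3 (274 against 59.8 CPM), Il7r (257 against 115 CPM), Tcf7 (287 against 154 CPM) and Klf2 (769 against 329 CPM). Ccr7 (111 against 12.8 CPM) and Dapl1 (150 against 4.27 CPM), chosen after their values were seen, pointed the same way.

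**Figure D4:**
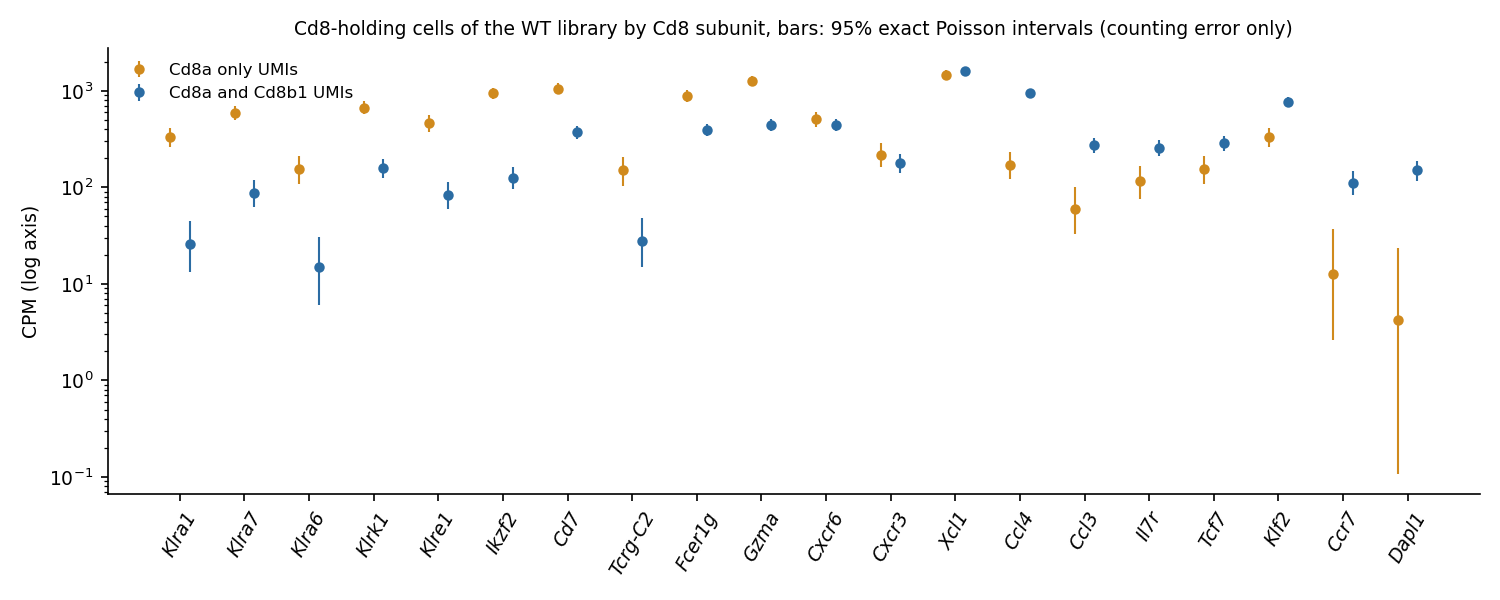
CPM (log axis) of 20 genes in WT Cd8-holding cells with Cd8a UMIs alone (34 cells, orange) and with both Cd8a and Cd8b1 UMIs (57 cells, blue), with 95% exact Poisson intervals. Klra1, Klra7, Klrk1 and Ikzf2 stood higher with Cd8a alone, Cxcr6, Cxcr3 and Xcl1 overlapped, and Ccl4, Ccl3, Klf2, Ccr7 and Dapl1 stood higher with both chains.

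Cells with Cd8a alone made up 33.0% of the WT and 9.30% of the Vsir-/- Cd8-holding cells, so the genotypes were also set side by side in cells with both chains, 57 WT and 33 Vsir-/-. There Klrk1 was at 158 CPM in WT and 185 CPM in Vsir-/- cells, with overlapping intervals. Fcer1g was at 396 and 16.4 CPM, Tyrobp at 355 and 12.3 CPM, Ikzf2 at 126 and 37.0 CPM and Cd7 at 370 and 107 CPM. Klra7 was at 87.8 CPM and at 0. The lower Klrk1 level of the Vsir-/- cells as a whole was thus not seen in cells with both chains, whereas the lower Fcer1g, Tyrobp, Ikzf2 and Cd7 levels were. The Cd8a-only group of the Vsir-/- library had 4 cells and was not compared.

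Genes of recirculating and central memory cells were lower in the Vsir-/- library in 10 of 17 measured genes and higher in 0, with a median log2 ratio of −1.23 and a summed level of 3489 and 2422 CPM, led by Ly6c2. Il7r, the receptor for the survival cytokine IL-7, was at 204 and 42.2 CPM (−2.27). Tcf7 (TCF1), the factor of memory and stem-like T cells, was at 233 and 81.1 CPM (−1.53), and Satb1 at 232 and 68.1 CPM (−1.77). Ccr7 and Lef1, named here after their values were seen, were also lower, Ccr7 at 74.8 and 6.49 CPM. Ly6c2 was at 1149 and 1239 CPM and Klf2, a factor of T cell quiescence and trafficking, at 610 and 464 CPM, less than 2-fold apart. In cells with both chains Tcf7 was at 287 and 78.1 CPM, Il7r at 257 and 20.6 CPM and Satb1 at 251 and 24.7 CPM. In the rest of the cluster Il7r had a log2 ratio of −0.75, and in the EM-like CD8+ cluster 1.22 (−0.20 to 2.51). The summed list was also lower in the Vsir-/- library in the other groups of cells. It stood at 2337 and 1572 CPM in the rest of the cluster and at 4245 and 3379 CPM in the EM-like CD8+ cluster. B cells had 3954 and 2453 CPM, and neutrophils 3574 and 2815 CPM.

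Xcl1 was at 1558 CPM in WT and 224 CPM in Vsir-/- cells, found in 59 and 18 cells, a log2 ratio of −2.80 (−3.17 to −2.45). A single WT cell held 384 of 1208 UMIs, and without the cell with most UMIs in each library the levels were 1083 and 166 CPM (−2.71). The rest of the cluster had a ratio of −0.64 and the EM-like CD8+ cluster −1.61, while the NK cluster was at 409 and 383 CPM. Xcl1 was thus the marker of the cluster in which the genotypes stood farthest apart, with Cxcr6 at −0.15 (−0.46 to 0.14) and Cxcr3 at 0.00 (−0.46 to 0.44). Cd7, an early T cell and NK cell surface protein, was at 569 and 136 CPM, Ikzf2 at 429 and 104 CPM, Spry2, an inhibitor of growth factor signaling, at 82.6 and 13.0 CPM, and Slamf6, a receptor of memory-like T cells, at 72.2 and 13.0 CPM.

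Among chemokines of effector T cells, Ccl4 alone was more than 2-fold higher in the Vsir-/- library. Cells with Cd8a alone, which held less Ccl4 in WT, were a smaller share of the Vsir-/- cells. Their part in this difference was not tested. Ccl4 was at 698 CPM in 46 WT cells and 1848 CPM in 35 Vsir-/- cells (log2 ratio 1.41, 1.23 to 1.58), while the rest of the cluster had −0.44 and the EM-like CD8+ cluster 0.18 (−0.05 to 0.42). Ccl5 was at 5438 and 8735 CPM (0.68, 0.61 to 0.75), while the other groups had −0.39 and −0.58. Ccl3 was at 244 and 318 CPM (0.38, 0.02 to 0.74), against −1.97 and −2.24. For Ccl3 and Ccl5, the Cd8-holding cells thus had a higher level in the Vsir-/- library where both other groups had a lower one, and these differences were not tested. Gzmk was at 31.0 and 156 CPM (2.33, 1.59 to 3.10), found in 12 and 16 cells, and Gzma at 659 and 201 CPM (−1.71). Without the cell with most Gzma UMIs in each library, Gzma was at 528 and 56.0 CPM (−3.24). The chemokine list of 8 genes, led by Ccl5, was higher in 1 and lower in 2 of 5 genes (8021 and 11145 CPM), and the chemokine receptor list of 12 genes, led by Cxcr6, lower in 1 of 5 (1062 and 1093 CPM).

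Ifng, the type 1 effector cytokine, was at 179 CPM in WT (151 to 212, in 40 cells) and 298 CPM in Vsir-/- Cd8-holding cells (240 to 366, in 29 cells), a log2 ratio of 0.73 (0.34 to 1.12). This was smaller than in the rest of the cluster, at 173 and 480 CPM (1.47), and in the EM-like CD8+ cluster, at 171 and 1295 CPM (2.92). The direction did not hold in every setting: without cells that held at least 2 UMIs of the B cell or macrophage list, 35 WT and 8 Vsir-/- cells remained with 63 and 10 Ifng UMIs, and the log2 ratio was −0.24. Within WT, cells with 1 Cd8 UMI held 497 CPM of Ifng and cells with 2 or more 121 CPM, and with at least 2 Cd8 UMIs the ratio between genotypes was 1.16. The type 1 list, led by Ly6c2, was past 2-fold in 0 of 13 genes in either direction (median −0.05, summed level 2942 and 2999 CPM), with Ifngr1 at 333 and 224 CPM and Hopx at 301 and 269 CPM.

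**Figure D5:**
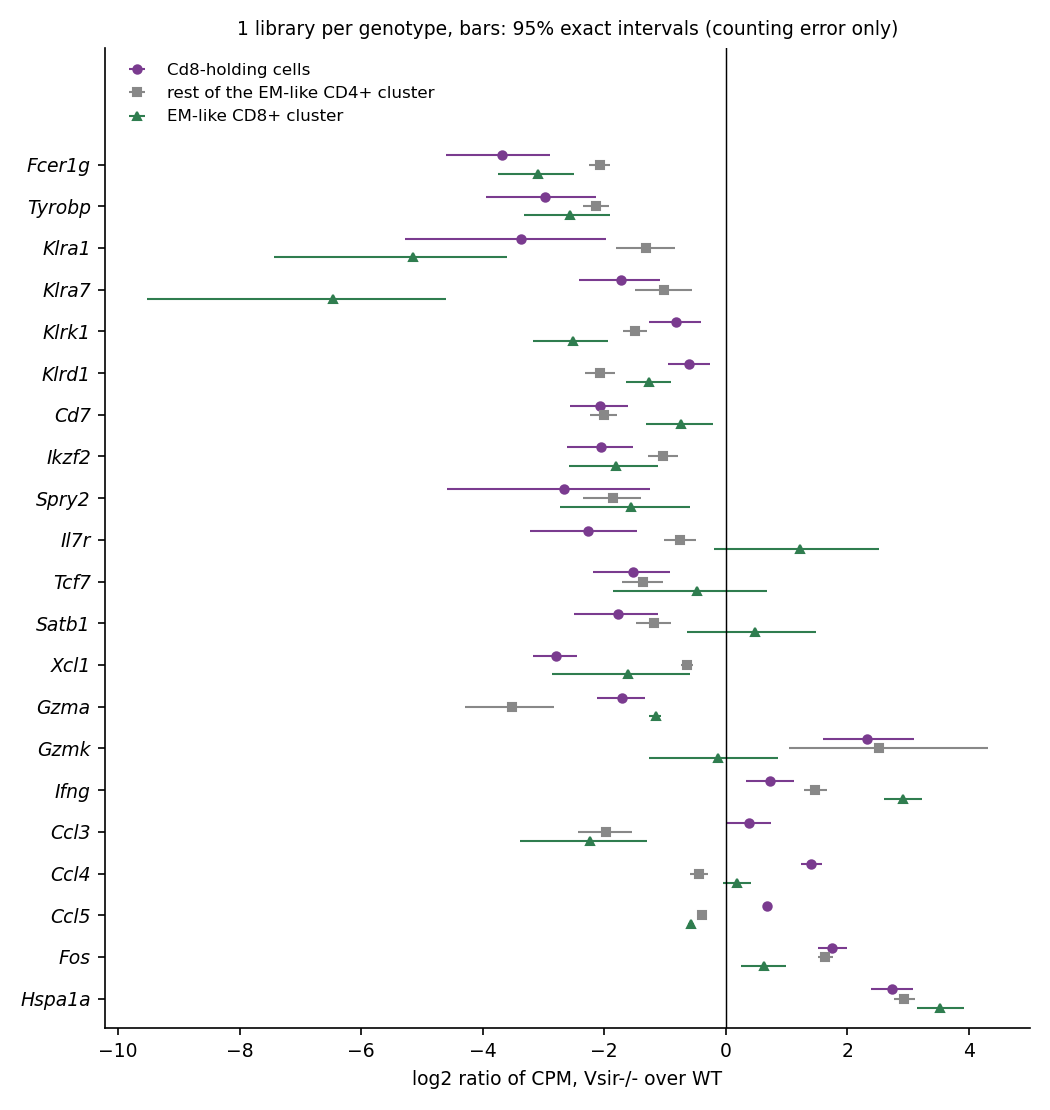
Log2 ratio of CPM, Vsir-/- over WT (x axis), for 21 genes in Cd8-holding cells (purple circles), the rest of the EM-like CD4+ cluster (gray squares) and the EM-like CD8+ cluster (green triangles), with 95% exact intervals; 1 library per genotype. Fcer1g and Tyrobp were lower in all 3 groups, while Ccl3 and Ccl5 were above 0 in Cd8-holding cells alone.

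Genes of tissue handling and of the fraction sorted also differed between the libraries in the Cd8-holding cells. The dissociation stress list, led by Hsp90ab1, was more than 2-fold higher in 11 of 20 genes and lower in 0 (median 1.21, summed level 9407 and 16913 CPM). Its summed level was also higher in the rest of the cluster (9906 and 21182 CPM) and in the EM-like CD8+ cluster (10117.5 and 15713 CPM). It was not higher in B cells (11951 and 11269 CPM) or neutrophils (13608 and 10383 CPM). Hspa1a, a heat shock gene, was at 125 and 830 CPM (2.73), with ratios of 2.94 in the rest of the cluster and 3.52 in the EM-like CD8+ cluster. The tubule list was higher in 12 of 15 genes, and the endothelium and stroma list in 4 of 5, but 23 of the 36 tubule genes and 6 of the 13 endothelium and stroma genes had no UMI anywhere in the WT library. The tissue residency and activation list, led by Cd69, was higher in 4 of 15 genes, Rgs1, Rgs2, Gadd45b and Nr4a1, and lower in 1, Itgae (median 0.76), while Cd69 itself was at 595 and 580 CPM. The part of handling in these differences was not tested. The highest single genes included Nme2 at 6.45 and 554 CPM, which differed alike in neutrophils (log2 ratio 8.93) and B cells (7.51), and Rpl13a at 885 and 5139 CPM. The libraries also differed in gene symbols, and the part of this in the Nme2 and Rpl13a ratios was not tested. S100a1 (6.45 and 146 CPM), Ifitm3 (19.4 and 292), Ldhb (18.1 and 230), Chchd10 (24.5 and 259) and Nrp1 (20.6 and 146) rested on few cells, with 1 Vsir-/- cell holding between 42 and 58% of the UMIs of each.

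The gene groups that follow had at most 3 genes past 2-fold between genotypes. The cytotoxic list was higher in 1 and lower in 1 of 14 genes (median 0.09), with Nkg7 at 1922 and 2036 CPM, and the type 17 list was past 2-fold in 0 of 4 genes (0.07). MHC class I presentation genes, led by H2-K1, were past 2-fold in 0 of 15 (12816 and 13706 CPM), pan-T cell genes in 0 of 12, and T cell receptor signaling genes in 1 of 18, lower (7174 and 6890 CPM). Glycolysis genes, led by Gapdh, were higher in 1 of 16 (3214 and 3350 CPM) and nuclear respiratory chain genes, led by Atp5e, in 1 of 56 with a median log2 ratio of 0.32 (17848 and 22033 CPM). Interferon-stimulated genes, led by Ifi27l2a, were higher in 2 of 19, Ifit2 and Iigp1 (4063 and 4361 CPM). Cell cycle genes, led by Hmgb2, were higher in 1 of 7 (1139 and 1407 CPM). Common gamma chain receptor genes, led by Il2rb, were higher in 1 and lower in 2 of 12 (1869 and 1388 CPM), and inhibitory and costimulatory receptors, led by Cd28, lower in 3 of 15 (1612 and 1388 CPM). Of those receptors Vsir was at 126 CPM in WT, in 62 of 103 cells, and at 0 in Vsir-/- cells, at least 13.0-fold lower. The common gamma chain and the inhibitory and costimulatory receptor lists had a larger share of lower genes than the 6.64% of all genes. So did some lists of few measured genes. The regulatory T cell list, led by Ikzf2, was lower in 2 of 5 genes (median −0.99, 721 and 315 CPM) and the gamma delta list in 3 of 5 (median −1.61). The CD8-lineage list was lower in 2 of the 4 genes counted, which leave out Cd8a and Cd8b1 (median −0.67). Its summed level, with Cd8a and Cd8b1 included, was 1944 and 2198 CPM.

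Cells with a Cd4 UMI beside Cd8 were few. The 10 WT cells had a median of 11345.5 UMIs against 6070 in the 93 without Cd4. Xcl1 was at 17.7 and 1821 CPM, Cxcr3 at 62.0 and 217 CPM and Klrk1 at 44.3 and 376 CPM in WT cells with and without a Cd4 UMI, and Maf at 398 and 128 CPM. The markers Xcl1 and Cxcr3 were thus lower in the cells that held both coreceptors, while 9 of these 10 cells also held at least 2 UMIs of the B cell or macrophage list, against 59 of the 93. The part of doublets in this group was not tested.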

How the data were processed

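Single-cell libraries were prepared from nephritic kidneys (1 WT and 1 Vsir-/-) with a 10x 3′ kit after digestion with liberase (0.2 mg/ml, 30 min at 37 °C). Per the submitters' processing notes, Cell Ranger 3.1.0, R 4.0.3, Seurat 3.2.3 and genome build mm9 were used, and the authors filtered genes and cells, adjusted for batch, and grouped the cells into the named clusters that are used here. The values used are the deposited counts, whole-number UMI counts per gene and cell without normalization, and the authors' table of cells, whose percent of mitochondrial UMIs served only for an alternative limit of 5%. Removal of doublets is not given in the sources used here, and none was done here.

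For each group of cells and library, UMIs were added up in Python 3.11.15, numpy 2.4.6, scipy 1.17.1 and pandas 2.3.3, and divided by all UMIs of the same cells (CPM). Cd8-holding cells had 775302 (WT) and 308398 (Vsir-/-) UMIs, the rest of the cluster 2027461 and 1268961, and the libraries 32799550 and 18601189. Intervals at the 95% level (Poisson for CPM, Clopper-Pearson for shares, conditional binomial for ratios) cover counting error only, and a group at 0 was set to 3 counts for a limit. Such a limit takes UMIs as independent and does not cover differences between cells. Counts of genes past 2-fold used genes with at least 20 UMIs in the groups compared and 0.5 UMI added to each sum. A list is described by its counts and its median beside those of all genes. Cells were thinned to 1000 UMIs, with fewer left out. The code was checked on simulated counts.

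The members and the gene lists were chosen with earlier results of these data known. The genes named are Cd8a, Cd8b1, Cxcr6, Xcl1, Cxcr3, Cd4, Ifng and Il17a, the 8 highest and 8 lowest ratios of each comparison, and the most abundant genes of each list. The ratios were taken from genes with at least 50 UMIs and, between genotypes, at least 4 in each library. In the other comparisons a group could hold fewer than 4, as for Arhgap5 and Il17a. Other genes belong to the lists or check the libraries, and were named after their values were seen. Some genes that meet the rule are not reported here. Since there is 1 library per genotype, no p-value was computed.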

Additional observations from a re-analysis of the deposited data

Results flagged for a closer look

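Among the named genes, 3 had ratios between the libraries of opposite sign in the Cd8-holding cells and in the EM-like CD8+ cluster with both counting intervals clear of 0, which drew them to notice; genes of opposite sign with an interval that includes 0 are not counted. Each group has 1 library per genotype, and the differences were not tested. On the log2 scale (Vsir-/- over WT), Cd8a had a ratio of 0.44 in Cd8-holding cells and −0.70 in the EM-like CD8+ cluster, and Cd8a is a gene that chose the cells. It was 0.68 and −0.58 for Ccl5, and 0.38 and −2.24 for Ccl3. Groups of 1 library gave no spread in which a library could stand apart.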

How the results depend on the processing

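No paired analysis was possible because each genotype has 1 library. The share of the WT cluster with Cd8 UMIs was 16.8% with at least 2 Cd8 UMIs, 14.1% with a Cd8b1 UMI required and 12.3% after thinning; the share in the Vsir-/- cluster stayed inside its own interval under each alternative run. The log2 ratio of Ifng was 1.16 with at least 2 Cd8 UMIs and −0.24 without cells with B cell or macrophage UMIs, and between 0.41 and 1.04 in the other settings. The 812 of 5860 genes past 2-fold between genotypes became 128 of 1020 after thinning, 326 of 1586 without cells with B cell or macrophage UMIs, 1549 of 7936 with a filter of 10 UMIs and 232 of 2978 with one of 50. The 73 of 3246 over EM-like CD8+ cells became 10 of 463, 15 of 444, 142 of 5363 and 25 of 1287 in the same settings, and the 97 of 6831 over the rest of the cluster 36 of 1770, 24 of 1432, 167 of 8404 and 38 of 4100, and 162 without the cell with most UMIs of each gene, a change whose cause was not tested. The other settings change how many genes are tested. The split of genes between genotypes, 423 higher and 389 lower, was 103 and 223 without cells with B cell or macrophage UMIs, 376 and 593 without the cell with most UMIs of each gene, 875 and 674 with a filter of 10 UMIs, and 407 and 504 with each cell weighted the same. With the median subtracted, it was 414 and 436. Among single genes, Xcl1 over the rest of the WT cluster was −0.038 with at least 2 Cd8 UMIs, and Ebf1 −0.44 in cells with no Cd4 UMI. Of the named gene ratios under the 4 alternatives run, 776 moved by less than their counting interval, 50 by more and 2 turned; of the list medians, 336 were alike and 152 moved, 49 of them with at least 2 Cd8 UMIs, 59 with each cell weighted the same and 44 in cells with no Cd4 UMI. Settings chosen after seeing the data were genes with a UMI in each library (697 genes), EM-like CD8+ cells with a Cd8 UMI (60), and cells with both chains (684, 65 and 133 genes; Ifng 1.04). The Vsir-/- values rest on 43 Cd8-holding and 28 EM-like CD8+ cells.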
